A study of Homo sapiens with 4 samples.

Results

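The fibroblast growth factor (FGF) genes described here are FGFBP1 and FGFBP3, the growth factor gene FGF2, the receptor genes FGFR1, FGFR2, FGFR3 and FGFR4, and FGFRL1. They were taken by symbol, 8 genes of the 58051 Ensembl genes listed for each library, and all 8 were matched and passed the filter on low counts that left 18046 tested genes. They were chosen by name with the doxycycline contrast known, and FGFBP1 was selected on its fold change there, being among the largest falls, so the fold changes of these 8 genes are given as a description with no test. Counts come from polyA RNA-seq of A549 cells, a long-established line from a human lung carcinoma, into which a doxycycline-inducible A-FOS gene was inserted at random sites with piggyBac transposase. The A-FOS protein is a dominant negative that binds JUN partners in dimers unable to contact DNA. All 4 libraries carry the inserted gene. In 2 of them the cells had no treatment (minus Dox) and in 2 the medium held 1 µg/mL doxycycline (plus Dox), with no time of exposure given in the sources used here. No library of cells without the inserted gene is among the 4, so doxycycline itself and A-FOS cannot be told apart. Whether replicate libraries came from separate cultures, and whether the cells were a clone or a pool, is not stated in the labels. Spread between libraries may therefore be technical.

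FGFs are secreted signals that bind to receptor tyrosine kinases on the cell surface, with heparan sulfate chains as a cofactor that also holds many FGFs in the extracellular matrix. FGF binding proteins are secreted carriers that bind FGFs, FGF2 among them, and can release them from that store. Receptor binding activates FRS2, GRB2, SOS and the RAS to ERK cascade, which in turn induces the ETS factors ETV4 and ETV5 and the feedback inhibitors of the Sprouty and DUSP families. In the lung, FGF signals direct branching of the epithelium, and FGF receptors are known as oncogenes in several carcinomas.

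Total counts ranged from 31104964 to 40526912 per library. FOS, whose reads cannot be separated from those of the inserted A-FOS in a count per gene, had 1.36 and 1.52 CPM (counts relative to the library size after TMM scaling) without doxycycline and 48.6 and 51.0 CPM with it. The 5 epithelial markers summed to 8180 to 8323 CPM in minus Dox and 5770 to 5961 CPM in plus Dox, and KRT19 among them had 122 and 121 CPM against 21.0 and 21.2 CPM. Of 6 alveolar type II markers, which summed to 117 to 125 CPM and 89.1 to 90.5 CPM, nearly all of the level was ABCA3, while SFTPA1 had 0 counts in every library and NKX2-1, the lung lineage factor, had 0 counts without doxycycline and at most 0.170 CPM with it. LAMP3, also of that list, had 0.384 and 0.720 CPM against 2.76 and 1.61 CPM. The 4 fibroblast markers summed to 41.6 to 47.9 CPM in minus Dox and 37.6 to 39.6 CPM in plus Dox. The 3 endothelial markers summed to 1.51 to 1.63 CPM and 0.805 to 1.19 CPM. Among them VWF went the other way, at 0.0887 and 0 CPM against 0.483 and 0.656 CPM. The 4 leukocyte markers, of which CD3E was at 0 throughout, summed to 0.160 to 0.503 CPM and 0.269 to 0.284 CPM. The epithelial, alveolar, fibroblast and endothelial sums were thus all lower in plus Dox with no overlap, though not every marker in them was. Their part in the differences below was not tested.

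The promoters of FGFBP1 and FGFR3, the genes with the lowest and the highest fold change among those above 5 CPM in either group, are shown because the induced protein acts on factors that bind DNA at AP-1 sites. Each is the 250 bases before the RefSeq start site, on the gene's own strand, in GRCh38.p14. Capitals would mark a motif and there are none.
FGFBP1, chr4:15938741-15938990, minus strand: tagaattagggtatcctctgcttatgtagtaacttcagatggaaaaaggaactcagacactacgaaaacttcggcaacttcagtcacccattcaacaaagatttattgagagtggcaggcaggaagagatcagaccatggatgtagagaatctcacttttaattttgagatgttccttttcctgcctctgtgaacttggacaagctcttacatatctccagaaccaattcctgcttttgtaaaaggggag
FGFR3, chr4:1793043-1793292, plus strand: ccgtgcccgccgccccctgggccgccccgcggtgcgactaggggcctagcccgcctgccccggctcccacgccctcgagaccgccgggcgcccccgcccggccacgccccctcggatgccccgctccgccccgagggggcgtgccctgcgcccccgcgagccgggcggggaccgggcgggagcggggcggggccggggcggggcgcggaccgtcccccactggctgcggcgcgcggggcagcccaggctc
The FGFBP1 stretch was 40.8% G and C and the FGFR3 stretch 86.8%, against a median of 58.0% over 35116 RefSeq promoter windows. Neither TGANTCA, the letters of an AP-1 site, nor TGACGTCA, those of a CRE, was found on either strand of the 300-base windows (250 before to 50 after the start) of 7 of the 8 genes, 12 windows in all. Of all windows of that length 7.71% held TGANTCA and 1.85% held TGACGTCA. With no match, no motif overlapped another, and sequence farther from the start was not searched. Other forms of these sites were not searched either. With so few windows, and such low shares over all windows, the lack of a match says little about these genes.

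FGFBP1 (ENSG00000137440, chromosome 4, 15935569 to 15938740 in hg38, minus strand) encodes the secreted FGF carrier. Its counts were 264 and 241 without doxycycline and 6 and 17 with it, which are 7.81 and 6.43 CPM against 0.170 and 0.507 CPM. Both plus Dox libraries were far below both minus Dox libraries, and they also differed from each other more, in proportion, than the minus Dox libraries did. The exact 95% Poisson intervals of the plus Dox counts, 2.20 to 13.1 and 9.90 to 27.2, overlap and cover counting error only. The means were 7.12 ± 0.976 and 0.339 ± 0.238 CPM (SD, n = 2). The fitted difference was −4.39 on the log2 scale (SE 0.27), or 21.0-fold lower. By fold change this was place 34 of the 5132 genes past the threshold of edgeR's test (adjusted p under 0.05) as lower. FGFBP1 was chosen on this value. The size of the fold rests on few counts. It was −5.36 on the log2 scale without plus Dox replicate 2 and −3.80 without plus Dox replicate 1. The SE of 0.27 was derived from edgeR's test statistic, and DESeq2 gave −4.40 with a larger SE of 0.61.

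FGFBP3 (ENSG00000174721, chromosome 10, 91906589 to 91909483), a second secreted carrier of the same family, did not share the size of that difference. It had 3.08 and 2.85 CPM without doxycycline and 2.30 and 2.09 CPM with it, a fitted log2 fold change of −0.43 (SE 0.21). The groups do not overlap, but the counts were only 70 to 107 per library. FGFBP2, the third carrier gene and the nearest annotated gene to FGFBP1 on 1 side, had 1 count in each minus Dox library and 0 in each plus Dox library, where 3 counts (0.0852 and 0.0895 CPM) is the limit that a count of 0 allows. Of the exon bases of FGFBP3, 10.6% lie opposite another gene, and the strand setting of the counting is not given in the sources used here.

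FGF2 (ENSG00000138685, chromosome 4, 122826708 to 122898236) encodes basic FGF, which leaves cells without a classical signal peptide. It had 78.5 and 78.2 CPM in minus Dox and 57.4 and 56.3 CPM in plus Dox. Levels within a group were almost equal, and all plus Dox values were below all minus Dox values, with a log2 fold change of −0.46 (SE 0.05). NUDT6, an antisense neighbour, covers 11.9% of the FGF2 exon bases from the opposite strand, so its reads may enter the count.

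FGFR1 (ENSG00000077782, chromosome 8, 38400215 to 38468834), a receptor for FGF2 and many other FGFs, had 158.8 and 165.1 CPM without doxycycline and 119.6 and 123.1 CPM with it. FGFR4 (ENSG00000160867, chromosome 5, 177086886 to 177098144), which with the coreceptor KLB is the receptor of the bile acid hormone FGF19, had 112.1 and 117.6 CPM against 71.7 and 80.1 CPM. Both genes were lower in plus Dox in all pairs of libraries. Their log2 fold changes were −0.42 (SE 0.04) for FGFR1 and −0.60 (SE 0.05) for FGFR4.

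FGFR3 and FGFR2 were at much lower levels and went the other way. FGFR3 (ENSG00000068078, chromosome 4, 1793293 to 1808872), a receptor best known for its role in bone growth and in bladder carcinoma, had 6.30 and 5.28 CPM without and 14.3 and 15.4 CPM with doxycycline. Its log2 fold change was 1.36 (SE 0.12), or 2.57-fold. FGFR2 (ENSG00000066468, chromosome 10, 121478334 to 121598458), which in epithelia receives FGF7 and FGF10 through its IIIb splice form, had 0.769 and 0.507 CPM against 2.07 and 1.79 CPM. Its log2 fold change of 1.60 (SE 0.33), or 3.04-fold, comes from 26 and 19 counts against 73 and 60. For both genes the plus Dox libraries lay above the minus Dox libraries with no overlap. Counts per gene do not separate the splice forms of a receptor.

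FGFRL1 (ENSG00000127418, chromosome 4, 1009936 to 1026897) encodes a receptor that binds FGFs but has no kinase domain. It had 47.4 and 48.8 CPM in minus Dox and 65.2 and 64.5 CPM in plus Dox, with no overlap and a log2 fold change of 0.43 (SE 0.06). FGFRL1 and FGFR3 are both on the short arm of chromosome 4 and FGFBP1 is on the same arm, but FGFBP1 differed in the opposite direction. The groups did not overlap for any of the 8, as for 77.0% of all tested genes. Both plus Dox libraries lay above both minus Dox libraries for 3 of the 8 and below them for 5. Nothing is read from these counts, since the contrast chose the genes. The median log2 fold change was −0.42 over the 8 and 0.00 over all tested genes.

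**Figure D1:**
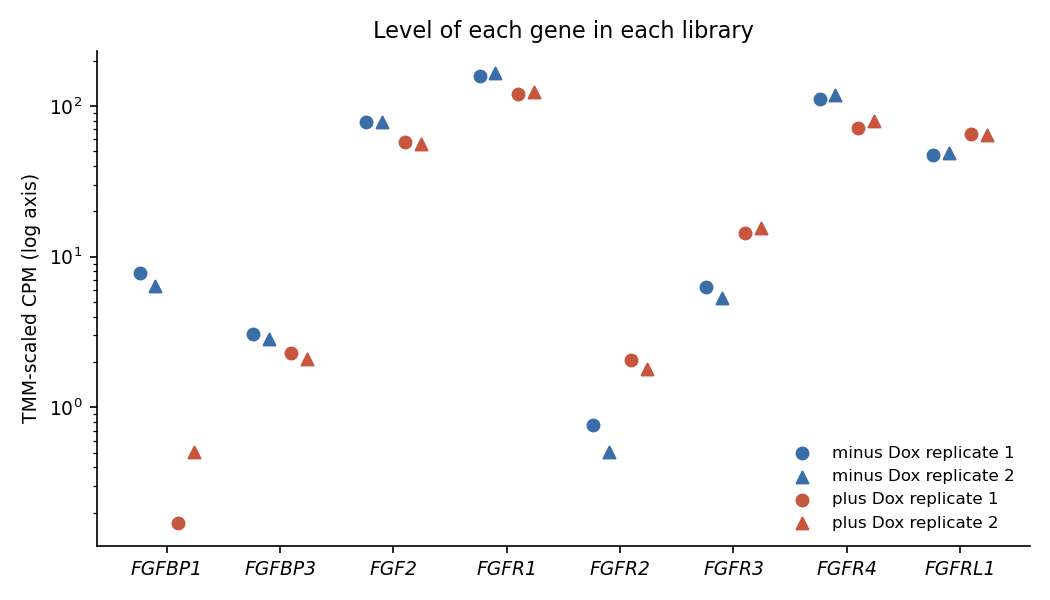
TMM-scaled CPM on a log axis for each of the 8 genes, with 1 point per library, circles for replicate 1 and triangles for replicate 2. FGFBP1 goes from 7.81 and 6.43 CPM in minus Dox to 0.170 and 0.507 CPM in plus Dox, while FGFR2, FGFR3 and FGFRL1 have their plus Dox points on top.

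**Figure D2:**
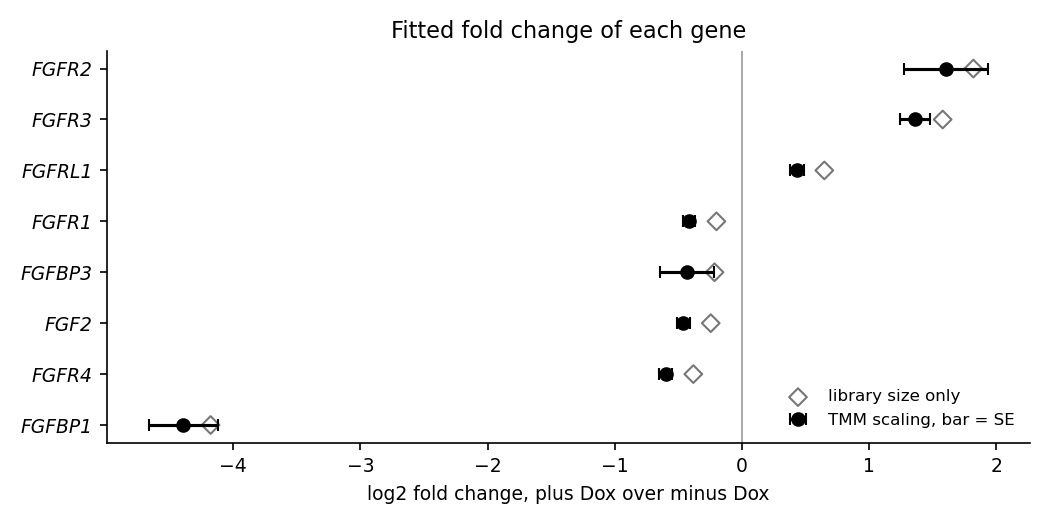
Fitted log2 fold change, plus Dox over minus Dox, with its SE as a bar (filled points, TMM scaling), and the same fit with library size only (open diamonds). No gene changes side with the scaling, and FGFBP1 at −4.39 stands far below the next, FGFR4 at −0.60.

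Scaling sets where these values sit. With library size only, the median of all tested genes moved to 0.22 on the log2 scale, and 72.9% of genes past the threshold were higher, against 50.0% with TMM. All 8 genes kept their direction there. FGFR1 was then at −0.20, FGFBP3 at −0.22, FGF2 at −0.25, FGFR4 at −0.38 and FGFRL1 at 0.65, where the median of all genes is 0.22.

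Levels can be set against each other only per length, here as CPM per kb of all annotated exon bases of a gene. Without doxycycline FGFR4 was highest, with 23.8 ± 0.806 CPM per kb (SD, n = 2). FGFR1, FGFRL1 and FGF2 followed at 11.7 ± 0.325, 11.6 ± 0.226 and 11.6 ± 0.0283 CPM per kb, and their libraries overlap. FGFBP1 stood next at 5.24 ± 0.718 CPM per kb. FGFR3 and FGFBP3, at 1.20 ± 0.149 and 1.17 ± 0.0615 CPM per kb, overlap, and FGFR2 was last at 0.0842 ± 0.0245 CPM per kb. With doxycycline FGFR4 and FGFRL1, at 15.7 ± 1.22 and 15.7 ± 0.127 CPM per kb, had overlapping libraries on this scale. FGFR1 at 8.77 ± 0.181 CPM per kb lay just above FGF2 at 8.40 ± 0.117 with no overlap, then came FGFR3 at 3.06 ± 0.173 and FGFBP3 at 0.862 ± 0.0592 CPM per kb. FGFBP1, at 0.249 ± 0.175 CPM per kb, was at the level of FGFR2, at 0.255 ± 0.0265 CPM per kb, with overlapping libraries. This order depends on the length used. Per kb of the longest coding transcript of each gene, a length chosen after seeing the data, FGFR1 had 26.8 ± 0.736 CPM per kb, FGFRL1 13.2 ± 0.262 and FGF2 11.6 ± 0.0292 without doxycycline, below FGFR4 at 36.8 ± 1.25, with no overlap between them. With doxycycline FGFR4 at 24.3 ± 1.90, FGFR1 at 19.8 and 20.3 in its libraries and FGFRL1 at 17.8 ± 0.148 CPM per kb did not overlap either, and FGFR2 at 0.442 ± 0.0460 lay above FGFBP1 at 0.249 ± 0.175 CPM per kb.

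Within the summed level of FGFR1 to FGFR4, the share of FGFR3 was 3.60% and 2.91% in the minus Dox libraries and 11.0% in both plus Dox libraries. FGFR4 held 64.3% and 65.0% without doxycycline and 55.6% and 57.4% with it. FGFR1 held 31.8% and 31.9% against 32.4% and 30.8%, so its share overlapped between the groups although its level was lower. FGFR2 stayed the least, at 0.281% and 0.179% against 1.02% and 0.817%. The sum itself was 36.8 ± 0.958 CPM per kb in minus Dox and 27.8 ± 1.55 CPM per kb in plus Dox (SD, n = 2). The shares depend on the length used, since the exons annotated for FGFR1 add up to 13842 bases and its longest coding transcript to 6054. With longest coding transcripts FGFR3 had 2.01% and 6.95%, FGFR4 56.6% and 50.5%, and FGFR1 41.2% and 41.7% in minus and plus Dox.

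**Figure D3:**
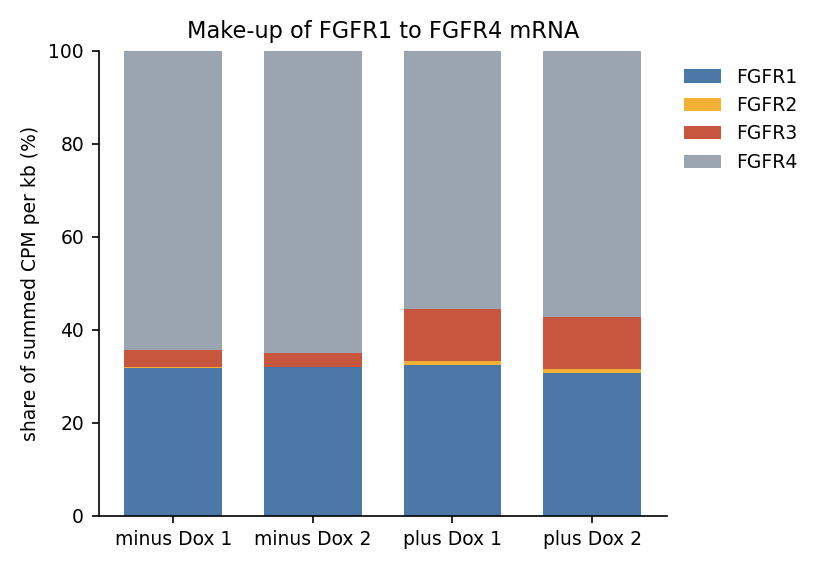
Share of each receptor gene in the summed CPM per kb of FGFR1 to FGFR4, in percent, with 1 stacked bar per library. The FGFR3 part widens from 3.60% and 2.91% to 11.0% and the FGFR4 part narrows, while the FGFR1 part overlaps between the groups.

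The rest of the pathway was read from 8 lists of 102 genes that are not among the 8 genes above. Of 78 tested genes 40 rose, 23 fell and 15 did not pass edgeR's quasi-likelihood test, with p-values adjusted by Benjamini-Hochberg over all tested genes. Genes past the threshold were 80.8% of the tested pathway genes, beside 56.9% of all tested genes, where 28.4% were higher and 28.4% lower. The lists were chosen with earlier results of these data known, and the 2 sets were not matched for level. Nothing is therefore read from the difference between these shares. The median log2 fold change of the 78 was 0.17, against 0.00 over all. With library size only 48 rose and 19 fell.

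Other FGF ligands were scarce. Of 17 genes 11 had too few counts to be tested, FGF7 and FGF10 among them, and no tested ligand had a mean above 1.5 CPM in either group. FGF5 fell from 1.20 ± 0.187 to 0.542 ± 0.204 CPM and FGF1 from 0.881 ± 0.0746 to 0.264 ± 0.133 CPM (SD, n = 2). FGF18, a ligand with a role in lung and bone, rose from 0.566 ± 0.256 to 1.43 ± 0.338 CPM. FGF19 rose too, from 0.256 to 0.693 CPM, and was picked out after its value was seen. These calls rest on few counts and each was lost without some library. FGF1, at −1.74 on the log2 scale, was at −1.29 without plus Dox replicate 1, and it passed at −2.35 without plus Dox replicate 2. FGF5 was at −0.99 without minus Dox replicate 1 and −0.80 without plus Dox replicate 1. FGF18 was at 0.92 without minus Dox replicate 1 and 1.06 without plus Dox replicate 2, and FGF19 at 1.08 without minus Dox replicate 2 and 0.90 without plus Dox replicate 1. FGF5 and FGF19 also missed the threshold in DESeq2. Of the intracellular homologous factors, which do not act as ligands of the receptors, FGF12 fell from 9.57 to 3.78 CPM (log2 fold change −1.34, SE 0.14, edgeR adjusted p = 4.04e-10). FGF11, with 75.0% of its exon bases shared with other genes, did not pass at 1.07 and 0.991 CPM, and FGF13 was not tested.

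Coreceptors and matrix carriers of heparan sulfate were tested in 15 genes, of which 7 fell, 5 rose and 3 missed the threshold. FLRT2, a membrane protein that interacts with FGF receptors, fell from 39.1 ± 0.795 to 9.53 ± 0.0618 CPM (SD, n = 2). Its log2 fold change was −2.04 (SE 0.08, edgeR adjusted p = 1.64e-21). Its relative FLRT3 rose from 14.1 to 28.7 CPM, with a log2 fold change of 1.03 (SE 0.08). The 3 most abundant genes of the list, all heparan sulfate proteoglycans, fell: the basement membrane proteins agrin (AGRN) from 463 to 346 CPM and perlecan (HSPG2) from 450 to 299 CPM, and syndecan 1 (SDC1) from 276 to 160.0 CPM. ANOS1, whose secreted product binds FGFR1, rose from 0.142 to 1.20 CPM, GPC2 from 1.29 to 3.12 CPM and SDC2 from 0.518 to 1.05 CPM. The call of SDC2 was lost in DESeq2 and without any of the 4 libraries, where its log2 fold change was 0.80 to 1.20. SDC3, the fifth that rose and named after its value was seen, went from 37.3 to 49.7 CPM. CDH2, SDC4 and GPC1, also named after their values were seen, fell from 191 to 95.7, from 58.3 to 33.0 and from 128 to 99.6 CPM.

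Enzymes that build or trim heparan sulfate went both ways, 5 up and 4 down of 12 tested. NDST1, which starts sulfation of the chain, fell from 412 to 214 CPM (log2 fold change −0.95, edgeR adjusted p = 1.35e-21). HS2ST1, the 2-O-sulfotransferase needed for FGF2 binding, rose from 36.0 to 73.7 CPM with an adjusted p of 2.56e-17, and the polymerase subunit EXT2 from 152 to 172 CPM. Heparanase (HPSE), which cleaves the chains, rose from 1.04 ± 0.413 to 5.32 ± 0.351 CPM. Named after their values were seen, the epimerase GLCE rose from 37.8 to 71.8 CPM and HS6ST1 from 18.0 to 25.4 CPM, and the sulfatase SULF2 fell from 73.3 to 43.1 CPM. HS3ST3B1 fell from 1.27 to 0.450 CPM, and HS3ST1, also named after its value was seen, from 2.36 to 1.37 CPM. The call of HS3ST1 was lost in DESeq2, with library size only, without minus Dox replicate 1, at −0.60, and without plus Dox replicate 2, at −0.70 on the log2 scale. EXTL3 did not pass, at 81.9 and 84.3 CPM, except as higher with library size only (0.26 on the log2 scale).

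Below the receptor, 16 of 20 adaptor and kinase genes rose, 2 fell and 2 did not pass, with a median log2 fold change of 0.31. The count that rose was 14 to 18 over all alternatives. Most of these differences were small, and the docking protein GAB1, from 8.98 ± 0.436 to 19.4 ± 0.00894 CPM (SD, n = 2), was the only 1 past 2-fold. The phosphatase PTPN11 rose from 364 to 434 CPM, and the adaptor SHC1 did not pass at 271 and 284 CPM, except as higher without minus Dox replicate 2 (0.089) and with library size only (0.28 on the log2 scale). STAT3 fell from 496 to 415 CPM, though not with library size only (−0.04), and the ERK kinase MAP2K2, named after its value was seen, fell from 242 to 152 CPM.

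Feedback inhibitors and transcriptional readouts of the pathway rose in 9 of 14 tested members, fell in 2 and did not pass in 3, with a median log2 fold change of 0.55. The ETS factors that FGF signals induce rose together: ETV1 from 12.9 to 28.3 CPM, ETV4 from 66.2 to 95.3 CPM and ETV5 from 85.2 to 119 CPM, with adjusted p-values of 4.42e-14, 4.30e-11 and 1.29e-10 in edgeR. The immediate early gene EGR1 rose from 1.40 ± 0.817 to 7.33 ± 0.562 CPM (SD, n = 2), with a log2 fold change of 2.40 that was 3.13 without minus Dox replicate 1 and 1.88 without minus Dox replicate 2. DUSP6, which removes phosphate from ERK, rose from 6.12 ± 0.248 to 14.7 ± 0.562 CPM, but another gene lies opposite 40.5% of its exon bases. DUSP4, the most abundant of the list, fell from 384 to 308 CPM. Among the Sprouty genes and the related SPRED genes, all named after their values were seen, only SPRY2 fell, from 18.8 to 12.9 CPM. SPRY1, SPRY4, SPRED1 and SPRED3 rose, with log2 fold changes of 0.95, 0.82, 0.57 and 0.91. No other gene of these families passed. Many other signals act on these genes, and their part in the differences was not tested.

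**Figure D4:**
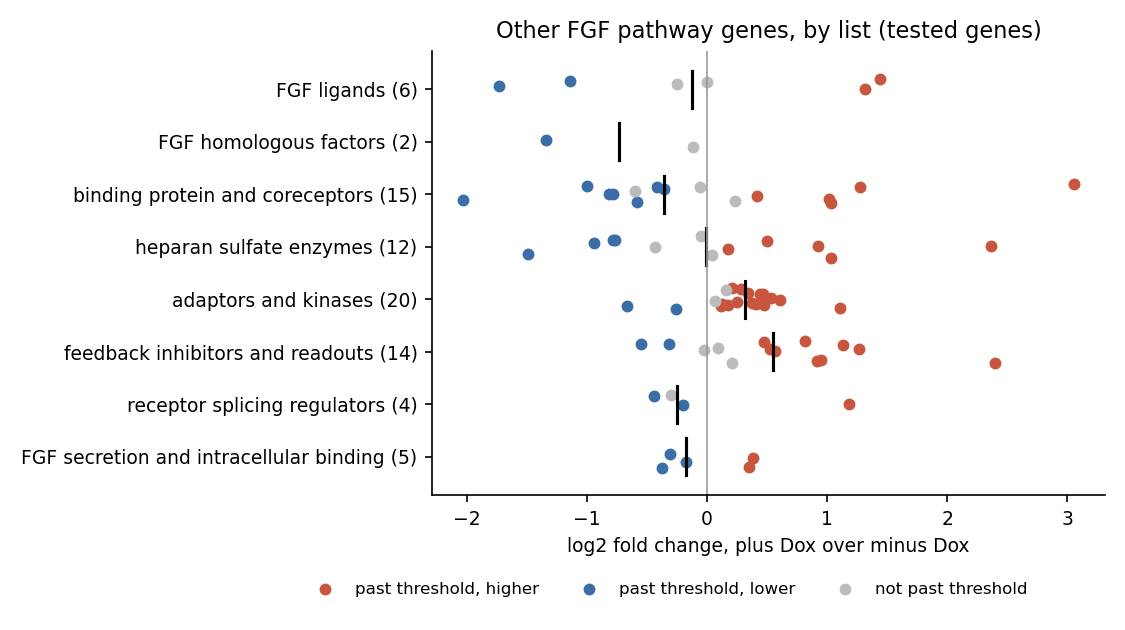
Log2 fold change, plus Dox over minus Dox, of the 78 tested pathway genes in 8 lists (tested genes in brackets), with a black bar at each list's median. Red and blue points are past the threshold as higher and lower, grey points are not, and 16 of 20 adaptor and kinase genes and 9 of 14 feedback and readout genes are red.

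Regulators of FGF receptor splicing were tested in 4 genes. ESRP1, which favours the epithelial IIIb form of FGFR2, rose from 0.546 ± 0.357 to 1.22 ± 0.125 CPM (SD, n = 2), and this call was lost without minus Dox replicate 2 (log2 fold change 0.60), without plus Dox replicate 2 (1.07) and in DESeq2. The log2 fold change of ESRP1 was 1.18 with all libraries and 2.04 without minus Dox replicate 1. ESRP2 did not pass at 1.14 and 0.932 CPM. RBFOX2 fell from 30.3 to 22.4 CPM and PTBP1 from 523 to 454 CPM, the latter not with library size only (0.013). Among genes for FGF secretion and intracellular FGF binding, API5 rose from 160 to 203 CPM and LRRC59 fell from 397 to 320 CPM. Named after their values were seen, FIBP fell from 56.4 to 43.6 CPM, and the kinase TEC rose from 4.27 to 5.56 CPM, a call lost in DESeq2, with no filter, without minus Dox replicate 2 (0.34) and without plus Dox replicate 1 (0.18 on the log2 scale).

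Genes around FGFBP1 did not differ on its scale. Of 18 annotated genes lying within 500 kb of it, 8 were tested, of which 1 rose, 2 fell and 5 did not pass. Over all tested genes 56.9% were past the threshold, 28.4% higher and 28.4% lower. TAPT1 rose from 27.5 ± 1.22 to 39.5 ± 1.68 CPM (SD, n = 2). Its log2 fold change was 0.52 (SE 0.07, edgeR adjusted p = 5.31e-08). The neighbouring NAD-consuming ectoenzymes CD38 and BST1 fell by 0.32 and 0.25 on the log2 scale, from 8.67 to 6.96 CPM and from 18.6 to 15.6 CPM. Both calls were lost with DESeq2 and with library size only, that of CD38 also without plus Dox replicate 1 (−0.30) or 2 (−0.34), and that of BST1 without minus Dox replicate 2 (−0.20) or plus Dox replicate 2 (−0.21). PROM1, the nearest tested gene, whose product marks some stem cells, had 0.229 ± 0.136 and 0.264 ± 0.0914 CPM. The log2 fold changes of CC2D2A, FBXL5, FAM200B and TAPT1-AS1, which missed the threshold, were −0.17, 0.025, 0.13 and −0.05. CC2D2A passed as lower without minus Dox replicate 2 (−0.22), without plus Dox replicate 1 (−0.27) and with a replicate block (−0.17). FAM200B passed as higher without minus Dox replicate 1 (0.27), and it (0.34) and FBXL5 (0.24) also with library size only.

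**Figure D5:**
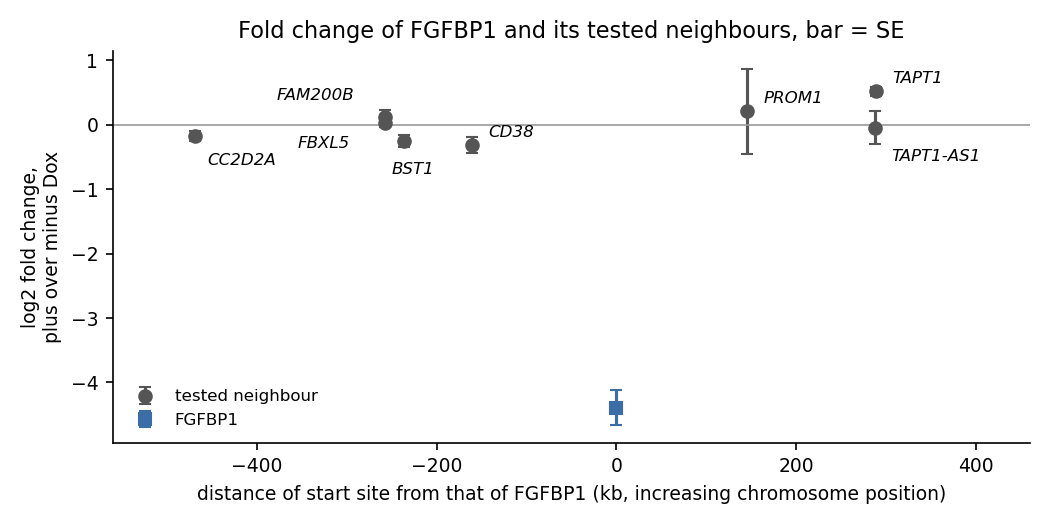
Log2 fold change with SE against the distance of each start site from that of FGFBP1, in kb, for FGFBP1 (square) and the 8 tested genes within 500 kb (circles). FGFBP1 lies at −4.39 and the neighbours between −0.32 and 0.52.

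The genes whose pattern over the 4 libraries was most like that of FGFBP1 were found by Euclidean distance between log2 CPM values centred on each gene's mean, among 11513 tested genes with a symbol and at least 5 CPM in the higher group. The nearest was LNCAROD, a long non-coding RNA, with 8.79 and 8.72 CPM without and 0.426 and 0.716 CPM with doxycycline, at a distance of 0.674. DIO2, the deiodinase that activates thyroid hormone, followed at 0.776, with 48.2 and 45.1 CPM against 2.13 and 2.51 CPM. INHBB, the activin B subunit, was at 0.817, with 12.4 and 12.0 CPM against 0.568 and 0.656 CPM. LSP1, an actin-binding protein of leukocytes, and PEAR1, a platelet receptor, came next at distances of 0.821 and 0.921, with log2 fold changes of −3.84 and −4.88. With 4 libraries in 2 groups, such likeness says little beyond a similar fold change. The plus Dox libraries differed less, in proportion, for each of these genes than for FGFBP1, which had 0.170 and 0.507 CPM there.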

How the data were processed

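Members and lists were chosen with earlier results of these data known. The authors deposited raw counts per Ensembl gene, 1 table per library; the submitters' processing notes name build hg38 and, among other tools and with no role or order, featureCounts 2.0.3, STAR 2.7.10b and cutadapt 4.0. No source used here gives the annotation release or strand setting. Gene positions and exon lengths are from GENCODE 29 and promoters from RefSeq (GRCh38.p14). All 102 pathway symbols were matched. Counts were filtered with filterByExpr and scaled by TMM, and tested with the quasi-likelihood test of edgeR 4.0.16 in R 4.3.3, group only, Benjamini-Hochberg adjustment over 18046 genes, threshold 0.05. The steps were tested on simulated data. Each SE of a log2 fold change is that change divided by the square root of the F statistic of edgeR's test. Levels are CPM over the TMM-scaled library size, and 1 count was 0.0267 to 0.0298 CPM. For the likeness to FGFBP1, log2 CPM had a prior count of 2. Genes named were all 8 members, pathway genes past the threshold with at least 2-fold and 1 CPM, the 3 most abundant of each list, tested neighbours within 500 kb of FGFBP1 and the 5 genes nearest to it in pattern. The result of a gene that this rule took is not reported here. Others are said to be named after their values were seen. Alternatives were other size factors, library size only, DESeq2 1.42.0, no filter, each library left out and a replicate block.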

Additional observations from a re-analysis of the deposited data

How the results depend on the processing

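Over all alternatives run, FGFBP1 kept its direction, from −5.36 to −3.80 on the log2 scale when 1 library was left out and −4.18 with library size only. No alternative turned the direction of any of the 8 genes. With library size only 7865 genes were higher and 2925 lower, against 5133 and 5132 with TMM. Counts of pathway genes ranged from 35 to 48 higher and from 19 to 23 lower. With the length of the longest coding transcript, a choice made after seeing the data, the receptor shares in minus and plus Dox were 41.16% and 41.67% for FGFR1, 2.012% and 6.952% for FGFR3, and 56.60% and 50.46% for FGFR4. Directions turned with library size only for FGF11 (0.097), PTBP1 (0.013), CC2D2A (0.046) and TAPT1-AS1 (0.17). With 1 library left out, log2 fold changes spanned 0 for FGF11 (−0.35 to 0.15), FBXL5 (−0.048 to 0.079), FAM200B (−0.028 to 0.27), PROM1 (−0.31 to 0.95) and TAPT1-AS1 (−0.26 to 0.14). The values that turned were 0.15 for FGF11, −0.048 for FBXL5, −0.028 for FAM200B and −0.31 for PROM1 without minus Dox replicate 2, −0.011 for FBXL5 and −0.19 for PROM1 without plus Dox replicate 2, and 0.14 for TAPT1-AS1 without plus Dox replicate 1. The cause was not tested. With a replicate block 5219 genes were higher and 5195 lower, FGFBP1 was at −4.39, and 40 and 23 pathway genes were higher and lower. Among the genes named, the block changed the call of CC2D2A alone (−0.17). The labels give no reason to pair equal numbers, and the differences between replicates 1 and 2 of each group correlated at r = 0.0023 across 18046 genes, which are not independent replicates. Low counts limit the values of FGFBP1 with doxycycline, FGFR2, ANOS1, SDC2, ESRP1 and the FGF ligands.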
